A study of Mus musculus with 12 samples.

Results

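The genes described here are the insulin-like growth factor (IGF) ligands Igf1 and Igf2, their receptor Igf1r and the IGF binding proteins Igfbp2 to Igfbp7, in mouse scars with and without mechanical traction. They were chosen by gene symbol, 9 of the 35976 genes in the count files, and all 9 passed the filter on low counts that left 18853 genes for testing. RNA was sequenced from scars of 12 male mice aged 8 to 12 weeks on a C57BL/6J background, with 3 mice in each of 4 groups: Tem1WT/WT sham (WTSH), Tem1WT/WT traction (WTTR), Tem1lacZ/lacZ sham (lacZSH) and Tem1lacZ/lacZ traction (lacZTR). All mice had a wound of 1.5 cm in the back skin and carried a plastic device from day 6, which was lengthened by 1 mm a day to 8 mm in all in the traction groups and left at its length in the sham groups. In Tem1lacZ/lacZ mice the single exon of Tem1 (Cd248), which encodes endosialin, is replaced by lacZ in every cell of the body, so the genotype is not limited to fibroblasts. The comparisons ask how traction changes the scar in each genotype and how the genotypes differ under each treatment.

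IGF1 and IGF2 are small secreted growth factors that signal through IGF1R, a tyrosine kinase receptor, to the PI3K and Akt kinases and to the MAP kinases. In skin they come largely from dermal fibroblasts and macrophages and act on keratinocytes, fibroblasts and vessels during repair. The IGF binding proteins hold the ligands in the matrix and the blood, and proteases that cut them set the ligands free. IGFBP7 binds IGFs weakly and is known mainly as a matrix protein of blood vessels.

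Library totals ranged from 41536788 to 64644293 counts, and each gene described here had at least 355 counts in every library, so its values were limited by the spread between mice and not by counting. Cd248 was at 92.4 to 337 CPM in the 6 Tem1WT/WT scars and at 0 to 0.248 CPM in the 6 Tem1lacZ/lacZ scars, as the labels say. CPM are counts scaled to a common library size, here normalized by TMM, the trimmed mean of M values. All 10 fibroblast markers were detected. The libraries hold whole scar tissue, in which fewer cells of a type and less RNA per cell cannot be told apart. One library stood apart: in WTTR replicate 1 the summed level of 8 neutrophil genes was 6797 CPM, against 286.8 and 609.3 CPM in the other WTTR scars, 62.08 to 97.7 CPM in WTSH and 171.8 to 529.7 CPM in Tem1lacZ/lacZ scars. Without it 0 of the 9 genes and 1.86% of all genes passed for traction in Tem1WT/WT, and the values of Igfbp7, Igf1r, Igf1, Igfbp2 and Igfbp4 without it are given with their results.

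Traction in Tem1WT/WT scars was accompanied by a rise of 1 of the 9 genes, Igfbp7, by edgeR's quasi-likelihood test with an adjusted p under 0.05, while 9.15% of all genes tested passed and 5.61% passed as higher. No gene of the family passed as lower, while the log2 fold changes of Igfbp5, Igfbp6 and Igf1 were negative, at -0.66, -0.14 and -0.12. The 3 WTTR scars did not overlap with the 3 WTSH scars for 3 genes, Igf1r, Igfbp4 and Igfbp7, all higher with traction, beside 35.7% of all genes without overlap in either direction and 17.7% higher without overlap. The median log2 fold change of the family was 0.69, beside -0.01 over all genes tested.

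In Tem1lacZ/lacZ scars none of the 9 genes passed with traction, and neither did any of the genes tested (0%). The smallest adjusted p of the family was 0.598 by edgeR's quasi-likelihood test. At an unadjusted p under 0.05 there were 3 of the 9, Igf2, Igfbp4 and Igfbp6, beside 8.12% of all genes, and DESeq2 and limma-voom called 0 of the 9, beside 0.13% and 2% of all genes. For 3 genes lacZTR and lacZSH did not overlap (Igf2 and Igfbp2 higher, Igfbp6 lower), beside 12.9% of all genes. The median of the family was 0.40, beside -0.01 over all genes.

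Between genotypes under traction 0 of the 9 genes passed by edgeR (0.106% of all genes), with 3 at an unadjusted p under 0.05 (26.1% of all genes). These were Igf1r, Igfbp3 and Igfbp7, lower in lacZTR than in WTTR with no overlap in each case, beside 26.6% of all genes without overlap and 13.7% lower without overlap. DESeq2 called these 3 beside 12.7% of all genes, and limma-voom called 0 beside 0.0849%. In sham scars 0 passed by edgeR (0.0106% of all genes), 0 were at an unadjusted p under 0.05 (11.7% of all genes), and DESeq2 and limma-voom called 0. Igf1r and Igfbp4 were lower and Igfbp7 was higher in lacZSH than in WTSH with no overlap, 3 of 9 genes beside 26.8% of all genes. The sham log2 fold changes lay between -0.66 for Igf2 and 0.28 for Igfbp6, with a smallest adjusted p of 0.491 by edgeR. Averaged over both treatments 0 of the 9 genes differed between genotypes by edgeR (0.053% of all genes), with 2, Igf1r and Igfbp3, at an unadjusted p under 0.05 (28.4% of all genes). DESeq2 called these 2 beside 17.4% of all genes, and limma-voom called 0 beside 2.93%.

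For the genotype by traction interaction, the test of whether traction acted differently in the 2 genotypes, 0 of the 9 genes passed by edgeR (0% of all genes) and 1, Igfbp7, was at an unadjusted p under 0.05 (8.91% of all genes). DESeq2 called Igfbp7 beside 0.377% of all genes, and limma-voom called 0. The comparisons share libraries: the WTTR scars enter both the traction effect in Tem1WT/WT and the genotype difference under traction, so the 2 results are not independent.

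**Figure D1:**
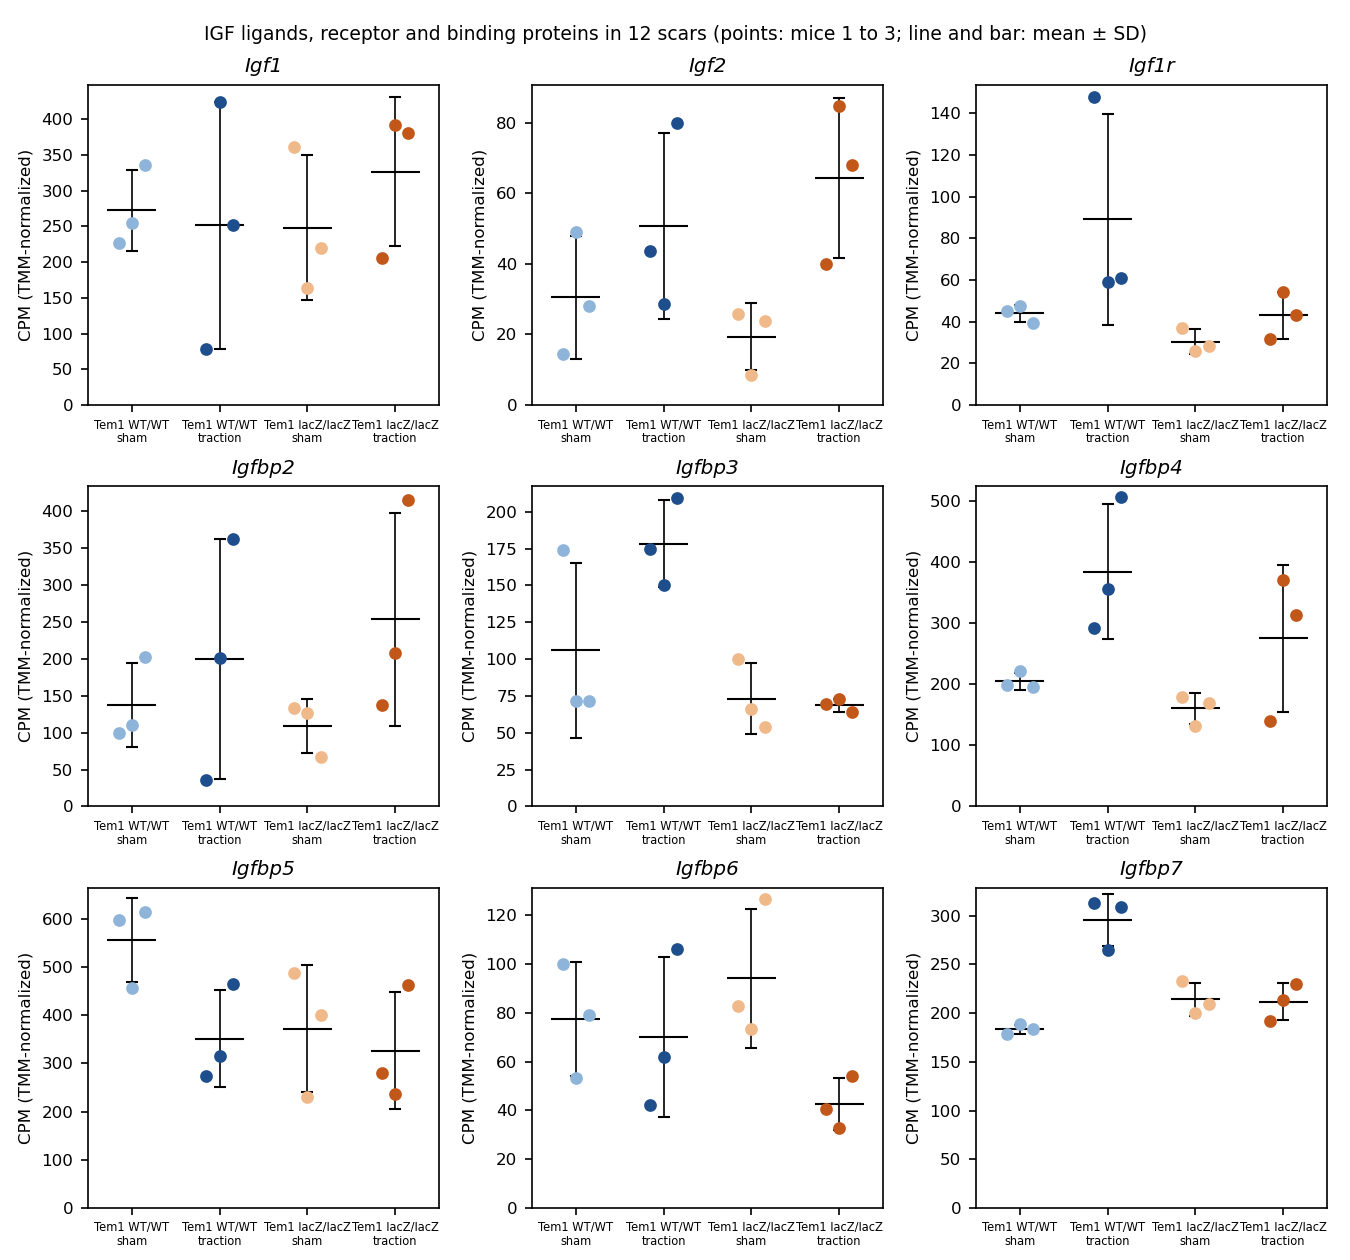
Level of each gene in TMM-normalized CPM (vertical axis, linear from 0) in the 4 groups, with 1 point per mouse in the order of replicates 1 to 3 and the mean ± SD as line and bar. Igfbp7 lies between 265 and 313 CPM in the Tem1WT/WT traction scars and between 179 and 233 CPM in the other 9 scars, while Igf1 and Igfbp2 spread widely within the Tem1WT/WT traction group.

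Igfbp7 carried the clearest difference. Its gene lies on the minus strand of chromosome 5, at chr5:77349240-77408045 in GRCm38. In Tem1WT/WT mice it was at 179, 188 and 183 CPM in the sham scars and at 313, 265 and 309 CPM in the traction scars. In Tem1lacZ/lacZ mice it was at 233, 200 and 210 CPM in the sham scars and at 192, 214 and 230 CPM in the traction scars. The lowest WTTR scar was thus above each of the other 9 scars, and the sham and traction scars of Tem1lacZ/lacZ mice overlapped. The group means were 184 ± 4.65 CPM (SD, n = 3) in WTSH, 295 ± 26.5 in WTTR, 214 ± 16.9 in lacZSH and 212 ± 18.9 in lacZTR.

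With traction in Tem1WT/WT scars Igfbp7 rose 1.61-fold, a log2 fold change of 0.69 (SE 0.13, 95% interval 0.39 to 0.98) with an adjusted p of 0.0278 by edgeR's quasi-likelihood test. Over 19 other settings the log2 fold change stayed between 0.57 and 0.77 and the adjusted p between 2.07e-05 and 0.122, past the threshold in 14. The call was lost without WTTR replicate 1, the scar with high neutrophil genes, where the log2 fold change was 0.62 and the adjusted p 0.0538. It was also lost without WTSH replicate 1 (0.122), WTSH replicate 2 (0.0894) or lacZSH replicate 3 (0.0512), and with only the 6 libraries compared (0.0761), a setting in which edgeR called 0 genes in all.

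In Tem1lacZ/lacZ scars the log2 fold change of Igfbp7 with traction was -0.02, with a 95% interval of -0.31 to 0.28. The difference from Tem1WT/WT is tested by the interaction. The interaction was -0.70 (SE 0.19, 95% interval -1.12 to -0.29), with an unadjusted p of 0.00328 and an adjusted p of 0.548 by edgeR. The adjusted p of the interaction ranged from 0.0497, by DESeq2, to 0.825 over the other settings, and its direction was the same in 18 of 18. Under traction Igfbp7 differed between genotypes by a log2 fold change of -0.48 (SE 0.13, adjusted p 0.0952 by edgeR).

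Markers of several cell types moved with Igfbp7, blood endothelial genes among them. The summed level of 8 blood endothelial genes was 356.5 to 519.3 CPM in WTSH and 854.2 to 1020 CPM in WTTR. With traction 5 of the 8 passed as higher by edgeR, beside 5.61% of all genes. In Tem1lacZ/lacZ scars the sum was 268.2 to 469.7 CPM with sham and 413.2 to 677 CPM with traction. There 0 of 8 passed by edgeR, with 5 at an unadjusted p under 0.05, beside 8.12% of all genes. None of the 8 was at 0. Over the 12 libraries the mean log2 level of these genes and that of Igfbp7 had a Pearson r of 0.758, and 0.594 after the group means were removed. These 12 points share groups and library composition. Fibroblast markers (r = 0.748) and hair follicle markers (r = -0.775) also moved with Igfbp7, as did neutrophil markers (r = 0.736, and 0.216 within groups). All 7 neutrophil markers tested were higher with traction in Tem1WT/WT, and 4 of them passed as higher by edgeR, beside 5.61% of all genes. Macrophage and monocyte markers had an r of 0.70 (0.585 within groups) and epidermal keratinocyte markers -0.644. Pericyte and smooth muscle markers had an r of 0.425, and white adipocyte markers -0.16 but 0.869 within groups. Each of the 8 hair follicle markers was lower in WTTR than in WTSH without overlap, beside 35.7% of all genes without overlap in either direction. Of these 1 passed the threshold, and their sum was 7483 to 14860 CPM in WTSH and 2367 to 4042 CPM in WTTR. The part of cell composition in the Igfbp7 difference was not tested.

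**Figure D2:**
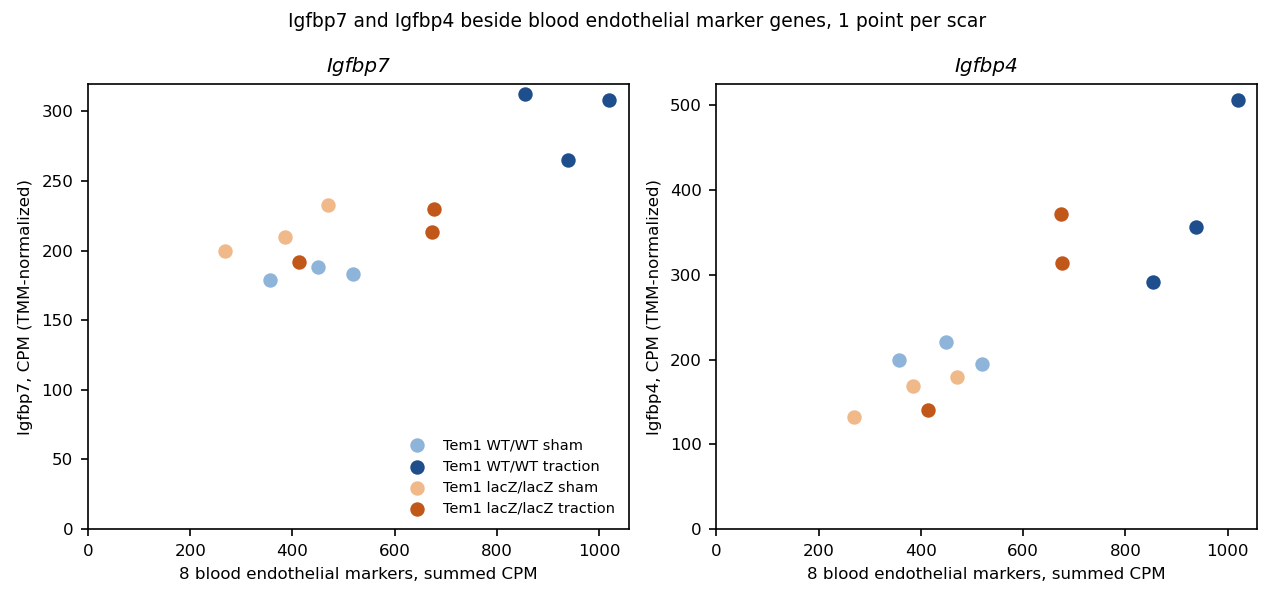
Level of Igfbp7 (left) and Igfbp4 (right) in TMM-normalized CPM against the summed CPM of 8 blood endothelial marker genes, with 1 point per scar colored by group and all axes linear from 0. The 3 Tem1WT/WT traction scars lie at the right of both panels, at 854.2 to 1020 CPM of endothelial markers. They are above all other scars for Igfbp7, while for Igfbp4 Tem1lacZ/lacZ traction scars at 371 and 313 CPM lie among them. The r values given in the text were computed on log2 levels.

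Igfbp4 is a secreted binding protein that mostly holds IGFs away from their receptor until the protease encoded by Pappa cuts it. It lies on the plus strand of chromosome 11, at chr11:99040005-99052655. In Tem1WT/WT mice it was at 199, 221 and 195 CPM in the sham scars and at 291, 357 and 506 CPM in the traction scars. The Tem1lacZ/lacZ values were 180, 132 and 169 CPM with sham and 140, 371 and 313 CPM with traction. All WTTR scars were above all WTSH scars, and in Tem1lacZ/lacZ mice 2 of the 3 traction scars were above all sham scars while replicate 1 lay among them. The log2 fold change with traction was 0.91 in Tem1WT/WT (SE 0.32, adjusted p 0.084) and 0.78 in Tem1lacZ/lacZ (SE 0.32, adjusted p 0.598), both by edgeR.

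Averaged over the 2 genotypes, traction raised Igfbp4 by 0.84 on the log2 scale (SE 0.23, adjusted p 0.0434) and Igfbp7 by 0.34 (SE 0.09, adjusted p 0.048) by edgeR, which made 2 of 9 genes beside 9.73% of all genes, or 6.5% as higher. The Igfbp7 value averages 0.69 in Tem1WT/WT and -0.02 in Tem1lacZ/lacZ, and the interaction of the 2 did not pass by edgeR. These averaged calls were close to the threshold: Igfbp4 passed in 7 and Igfbp7 in 5 of 18 other settings, with the same direction in all 18. The adjusted p of Igfbp4 ranged from 0.00526 without lacZTR replicate 1, where the log2 fold change was 1.02, to 0.107 without lacZTR replicate 2. That of Igfbp7 ranged from 0.00396 to 0.121, and both calls were lost without any 1 of the 6 sham libraries, without WTTR replicate 3 and without lacZTR replicate 2 or 3. Without WTTR replicate 1 Igfbp4 passed (adjusted p 0.038) and Igfbp7 did not (adjusted p 0.0715). Igfbp4 followed the blood endothelial markers more closely than any other gene of the family did, with an r of 0.924 over the 12 libraries (0.801 within groups). Its r was 0.875 with 8 pericyte and smooth muscle markers and 0.866 with 10 fibroblast markers. The summed fibroblast level was 27020 to 42490 CPM in WTSH, 44690 to 111900 in WTTR, 18400 to 31250 in lacZSH and 23050 to 50350 in lacZTR. The list did not move as one: with traction 7 of the 10 markers were higher and 3 lower in Tem1WT/WT. In Tem1lacZ/lacZ 5 were higher and 5 lower. The pericyte and smooth muscle sum was 703.1 to 1058, 727.3 to 1136, 454.2 to 657.6 and 757.9 to 894.9 CPM in the same order, and the part of these cell types in the Igfbp4 values was not tested.

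Because Igfbp4 and Igfbp7 both rose in the averaged comparison, the 250 bases before their listed start sites are shown, from RefSeq on GRCm38.p6. The capitals mark the core TATAAA of a TATA box in Igfbp4, and GGGCGG, the core of a GC box bound by Sp1 factors, on either strand in Igfbp7. The Igfbp4 window is chr11:99040994-99041243 on the plus strand and the Igfbp7 window is chr5:77408046-77408295 on the minus strand. The Igfbp4 window lies inside the gene span given above, so it precedes a start site within that span and not its first base.
Igfbp4: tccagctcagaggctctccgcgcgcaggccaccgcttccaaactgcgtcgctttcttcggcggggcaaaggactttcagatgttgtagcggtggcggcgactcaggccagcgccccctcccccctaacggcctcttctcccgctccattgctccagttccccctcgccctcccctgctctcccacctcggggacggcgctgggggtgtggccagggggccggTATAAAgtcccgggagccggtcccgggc
Igfbp7: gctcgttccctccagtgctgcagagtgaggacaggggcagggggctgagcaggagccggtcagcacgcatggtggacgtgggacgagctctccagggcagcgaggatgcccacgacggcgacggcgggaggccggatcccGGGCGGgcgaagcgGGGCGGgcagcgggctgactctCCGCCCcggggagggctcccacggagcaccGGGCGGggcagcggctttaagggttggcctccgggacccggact

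The 2 windows were compared only for base composition and for the few motifs named here. The Igfbp7 window is 74.0% G and C with 26 CpG sites, and the Igfbp4 window is 69.2% G and C with 22 CpG sites. Both are above the median of 52.4% G and C over 32851 mouse windows. The Igfbp7 window holds 4 GGGCGG and no TATAAA, and the Igfbp4 window holds 1 TATAAA and no GGGCGG. On both strands, GGGCGG is present in 32.7% and TATAAA in 12.4% of all windows. The letters GGAATG, bound by TEAD factors (12.6% of all windows), TGANTCA, bound by AP-1 (6.75%), and GTAAACA, bound by FOXO factors (3.17%), were in neither window. These motifs do not overlap in the printed windows, and a match of letters is not evidence of binding.

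The values of Igf1r depended on WTTR replicate 1. In Tem1WT/WT mice it was at 45.2, 47.4 and 39.2 CPM with sham and at 148, 59.1 and 60.8 CPM with traction. Without Tem1 it was at 37.1, 25.8 and 28.1 CPM with sham and at 31.5, 54.2 and 43.1 CPM with traction. Each WTTR scar was above every scar of the other groups, and WTTR replicate 1 was far above the rest. The log2 fold change with traction was 1.02 in Tem1WT/WT (SE 0.34, adjusted p 0.074) and 0.50 in Tem1lacZ/lacZ (SE 0.34, adjusted p 0.684) by edgeR, and the genotype difference under traction was -1.05 (SE 0.34, adjusted p 0.108). Without WTTR replicate 1 these values were 0.43 (SE 0.23, adjusted p 0.26) for traction in Tem1WT/WT and -0.44 (SE 0.23, adjusted p 0.296) for genotype, and the interaction changed from -0.52 to 0.11.

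The receptor thus differed between genotypes in both treatments without overlap, beside 26.6% of all genes under traction and 26.8% in sham scars. No comparison of Igf1r passed by edgeR in the fit of all 12 libraries. Averaged over genotypes its log2 fold change with traction was 0.76 (adjusted p 0.064), and averaged over treatments its genotype difference was -0.79 (adjusted p 0.0791), both by edgeR. DESeq2 called both, as it did 19.2% and 17.4% of all genes. It also called Igf1r for traction in Tem1WT/WT and for genotype under traction, beside 20.3% and 12.7% of all genes. By limma-voom Igf1r passed for averaged traction alone, beside 20.4% of all genes. Over 12 libraries Igf1r had an r of 0.766 with the mean log2 level of neutrophil markers, 0.796 with macrophage and monocyte markers and -0.867 with epidermal keratinocyte markers. Without WTTR replicate 1, a setting chosen after the data were seen, these were 0.22, 0.72 and -0.556. The mean log2 level of the keratinocyte markers was 7.91 in that library and 9.70 to 10.7 in the other 11, while their summed level did not stand apart there. Without that library Igf1r had an r of 0.94 with pericyte and smooth muscle markers and 0.857 with blood endothelial markers, against 0.452 and 0.70 over all 12. The summed level of 8 macrophage and monocyte genes was 1292 to 1886 CPM in WTSH, 1926 to 2823 in WTTR, 904.5 to 1669 in lacZSH and 998.1 to 2072 in lacZTR. All 8 markers of each of these 5 lists were detected, and their part in the Igf1r values was not tested.

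The ligands varied widely between mice of the same group. Igf1, the ligand through which growth hormone acts in many tissues, was at 227, 255 and 336 CPM in WTSH and at 77.7, 425 and 253 CPM in WTTR. In mice without Tem1 the values were 361, 163 and 220 CPM with sham and 206, 392 and 382 CPM with traction. WTTR holds both the lowest and the highest of the 12 values, the lowest in replicate 1. Its log2 fold change with traction in Tem1WT/WT was -0.12 (SE 0.51, adjusted p 0.899 by edgeR), and without WTTR replicate 1 it was 0.30. No comparison of Igf1 passed under any of the 18 or 19 other settings.

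Igf2, the ligand of growth before birth, was at 14.3, 49.2 and 27.9 CPM in WTSH and at 43.6, 28.7 and 80.0 CPM in WTTR. Tem1lacZ/lacZ mice had 25.7, 8.42 and 23.8 CPM with sham and 40.0, 84.9 and 67.9 CPM with traction. The WTSH and WTTR ranges overlapped, and each lacZTR scar was above each lacZSH scar. The log2 fold change with traction was 1.74 in Tem1lacZ/lacZ (SE 0.55, 95% interval 0.52 to 2.95, unadjusted p 0.00953, adjusted p 0.598) and 0.74 in Tem1WT/WT (SE 0.54, adjusted p 0.377) by edgeR. Averaged over genotypes it was 1.24 (SE 0.39, adjusted p 0.0638), the largest of the family, and DESeq2 and limma-voom called it, beside 19.2% and 20.4% of all genes. The interaction of Igf2 had an adjusted p of 0.68 by edgeR, so its effects in the 2 genotypes were not shown to differ. Its r with the blood endothelial markers was 0.747 over the 12 libraries, and their part in the Igf2 values was not tested.

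**Figure D3:**
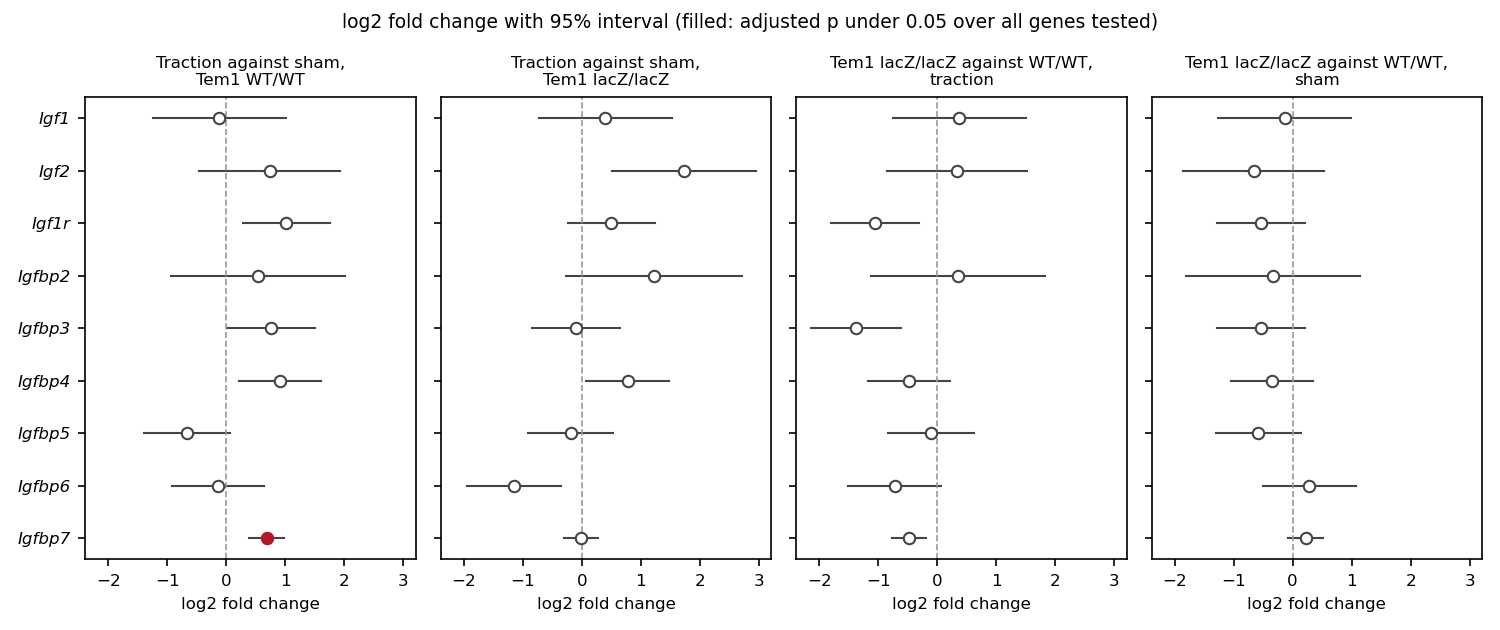
log2 fold change (horizontal axis) with its 95% interval for the 9 genes in 4 comparisons, from edgeR's quasi-likelihood fit of all 12 libraries, with a filled point where the adjusted p is under 0.05. Igfbp7 with traction in Tem1WT/WT, at 0.69, is the only filled point, and its interval is the narrowest in every panel.

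Igfbp3, the main carrier of IGFs in the blood, where it forms a complex with the product of Igfals, was at 174, 71.6 and 71.9 CPM in WTSH and at 175, 151 and 209 CPM in WTTR. In Tem1lacZ/lacZ mice it was at 99.8, 66.3 and 53.7 CPM with sham and at 69.3, 72.8 and 63.8 CPM with traction. The lacZTR values were close together and all below WTTR, and WTSH replicate 1 lay within the WTTR range. The genotype difference under traction was -1.38 on the log2 scale (SE 0.34, 95% interval -2.13 to -0.62, adjusted p 0.093 by edgeR), the largest of the family. It lay between -1.49 and -1.24 over 19 other settings, with adjusted p from 0.00569 to 0.295, and passed in 2 of them. With traction in Tem1WT/WT the log2 fold change was 0.75 (SE 0.34, adjusted p 0.157), and 1.31 without WTSH replicate 1 (adjusted p 0.11). The interaction was -0.85 (SE 0.48, adjusted p 0.594), and -1.40 without WTSH replicate 1. Averaged over treatments the genotype difference was -0.95 (SE 0.24, adjusted p 0.07), all by edgeR.

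Igfbp5, a binding protein that attaches to the matrix, had the most counts of the family in WTSH. It was at 597, 455 and 614 CPM in WTSH and at 273, 316 and 464 CPM in WTTR, so that 1 of the 3 traction scars reached the sham range. The Tem1lacZ/lacZ values were 487, 229 and 399 CPM with sham and 280, 236 and 463 CPM with traction, with broad overlap. The log2 fold change with traction in Tem1WT/WT was -0.66 (SE 0.33, adjusted p 0.193 by edgeR), the lowest of the 9 genes in that comparison.

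Igfbp6, which prefers IGF2 to IGF1, was at 99.9, 53.2 and 79.0 CPM in WTSH and at 42.3, 61.7 and 106 CPM in WTTR. Without Tem1 it was at 82.7, 73.2 and 127 CPM with sham and at 40.8, 32.8 and 54.2 CPM with traction. The lacZTR scars were all below the lacZSH scars. The log2 fold change with traction in Tem1lacZ/lacZ was -1.14 (SE 0.36, 95% interval -1.94 to -0.35, unadjusted p 0.00872, adjusted p 0.598), and the interaction was -1.004 (SE 0.50, adjusted p 0.569), both by edgeR. Neither passed in any other setting.

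Igfbp2, which also prefers IGF2, was at 99.1, 110 and 202 CPM in WTSH and at 36.0, 201 and 362 CPM in WTTR. In mice without Tem1 the values were 133, 126 and 66.9 CPM with sham and 137, 208 and 415 CPM with traction. WTTR replicate 1 was the lowest of the 12 scars, and lacZTR lay just above lacZSH without overlap. The log2 fold change with traction was 0.54 in Tem1WT/WT (SE 0.67, adjusted p 0.615) and 1.22 in Tem1lacZ/lacZ (SE 0.68, adjusted p 0.646) by edgeR. The first was 1.01 without WTTR replicate 1 and -0.21 without WTTR replicate 3, and the second was 0.66 without lacZTR replicate 3. Igfbp2 and Igfbp5 are neighbours on chromosome 1, at chr1:72824480-72852474 and chr1:72858065-72874865, with their 3′ ends 5590 bases apart. Their levels had an r of 0.225 over the 12 libraries.

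The other 5 genes lie apart from each other in GRCm38: Igf1 at chr10:87858265-87937047, Igf2 at chr7:142650768-142666816, Igf1r at chr7:67952257-68233668, Igfbp3 at chr11:7206086-7215498 and Igfbp6 at chr15:102144186-102149512. Compared per kilobase of exon, Igfbp7 was the most abundant transcript of the family, at a mean of 187 CPM per kb over the 12 scars (SD 38.3). Igfbp2 followed at 94.6, Igfbp5 at 66.8, Igfbp6 at 63.9, Igfbp4 at 58.0 and Igfbp3 at 34.0 CPM per kb. The ligands were lower, with Igf1 at 27.7 and Igf2 at 7.20 CPM per kb, and Igf1r was lowest at 3.07 CPM per kb. Igfbp7 was above Igfbp2 in 11 of 12 libraries, Igfbp4 above Igfbp3 in 11, and Igf1 above Igf2 in 12. The order of Igfbp2, Igfbp5, Igfbp6 and Igfbp4 was not resolved, since each was above the next in 6 to 8 libraries, and Igfbp3 was above Igf1 in 6. Igf2 was above Igf1r in 9. The level of Igf2 per kb, and its ratio to Igf1, may be affected by exons that it shares with another gene on the same strand.

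Some shares of the binding protein transcripts differed with traction without overlap in 1 of the 2 genotypes and overlapped in the other. Whether the genotypes differed in these shares was not tested. Igfbp5 made up 20.2%, 18.4% and 20.4% of the summed binding protein level per kb in the WTSH scars and 9.40%, 9.30% and 9.60% in the WTTR scars. These 2 groups were far apart and each was tight, although the CPM of Igfbp5 itself overlapped. In Tem1lacZ/lacZ scars its share was 16.5%, 9.82% and 14.9% with sham and 12.6%, 8.43% and 12.2% with traction, with overlap. Igfbp4 took 8.79% to 12.2% in WTSH and 13.6% to 14.3% in WTTR. Igfbp6 took 15.1% to 25.6% in lacZSH and 6.34% to 9.89% in lacZTR, and Igfbp2 took 8.13% to 17.6% and 20.1% to 35.6%, each without overlap. The other shares overlapped between sham and traction: Igfbp2, Igfbp3, Igfbp6 and Igfbp7 in Tem1WT/WT, and Igfbp3, Igfbp4, Igfbp5 and Igfbp7 in Tem1lacZ/lacZ. Some mean shares still moved as in the other genotype: Igfbp6 from 14.7% in WTSH to 9.85% in WTTR, and Igfbp4 from 8.20% in lacZSH to 12.6% in lacZTR. The mean share of Igfbp5 was 13.7% in lacZSH and 11.1% in lacZTR, and that of Igfbp2 was 15.7% in WTSH and 15.9% in WTTR. Igfbp7 had the largest share in 11 of the 12 scars, and Igfbp2 had it in lacZTR replicate 3. Shares of 1 total depend on each other, so they are given as a description without a test.

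**Figure D4:**
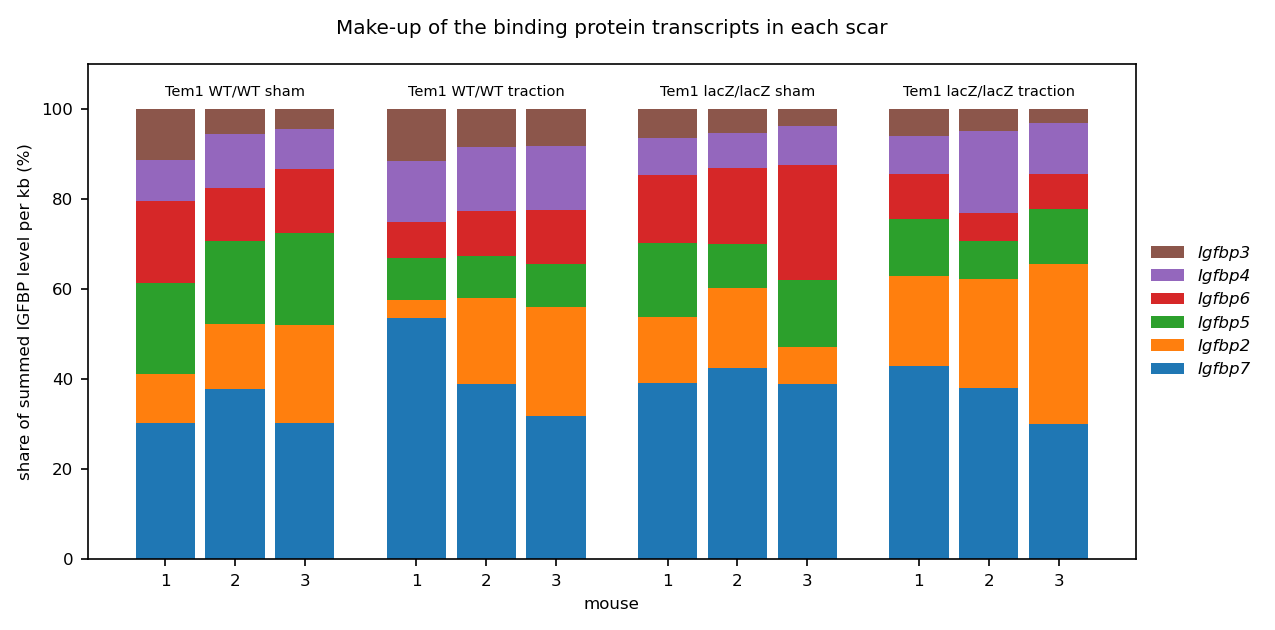
Share of each of 6 binding proteins in their summed level per kilobase (vertical axis, %) in each of the 12 scars, stacked to 100% and ordered by group and mouse. Igfbp5 (green) covers 18.4% to 20.4% in the Tem1WT/WT sham scars and 9.30% to 9.60% in the Tem1WT/WT traction scars.

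The balance of the 2 ligands also differed between scars. Per kilobase, Igf1 exceeded Igf2 by 5.34 to 11.2 times in lacZSH and by 2.67 to 3.25 times in lacZTR, without overlap. In Tem1WT/WT scars the ratio was 2.99 to 9.18 with sham and 1.03 to 8.56 with traction, with overlap. The summed binding proteins exceeded the summed ligands in every scar, by 12.01 to 19.3 times in WTSH, 11.8 to 31.3 in WTTR, 12.04 to 21.7 in lacZSH and 8.55 to 13.3 in lacZTR. The group ranges of this ratio overlapped, with lacZTR at the low end.

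The genes differed in how steady they were within a group. The SD of log2 CPM within groups was 0.11 for Igfbp7, a value reached or undercut by 2.39% of all genes tested. It was 1.03 for Igfbp2 (percentile 93), 0.78 for Igf2 and 0.75 for Igf1, against a median of 0.36 over all genes, and 0.44 to 0.49 for the remaining 5 genes. With traction in Tem1WT/WT the log2 fold change of 0.69 of Igfbp7 had an SE of 0.13 and passed, while 0.91 for Igfbp4 and 1.02 for Igf1r, with SEs of 0.32 and 0.34, did not.

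Over the 12 libraries, the pairs of the family with the highest correlation of log2 CPM were Igf1 and Igfbp2 (r = 0.755), Igf2 and Igfbp4 (r = 0.729) and Igf1r and Igfbp7 (r = 0.709). Without WTTR replicate 1 these were 0.531, 0.725 and 0.525, and Igf1r and Igfbp4 had an r of 0.90, against 0.66 over all 12. Igfbp5 and Igfbp6 had an r of 0.604, and 0.745 within groups. Among 13645 genes, those most like Igfbp7 by Pearson r of log2 CPM over the 12 libraries were Uso1 (0.943), Ppp4r1 (0.931) and Dll4 (0.929), the last a Notch ligand of endothelial cells. Those most like Igfbp4 were B3glct (0.982), Hectd3 (0.976) and Zfp865 (0.973). For Igf1r they were Dhx38 (0.991), Tbx3 (0.986) and Kdm6b (0.985). For Igf1 they were Smarca1, Fhl5 and Gulp1 (0.911 to 0.947), for Igf2 1700052K11Rik, She and Dnah1 (0.841 to 0.877), and for Igfbp2 the elastic fibre gene Fbln5, Robo2 and Tmem132c (0.916 to 0.932). For Igfbp3 they were Gpx3, Ndufa4l2 and the endothelin receptor gene Ednra (0.924 to 0.94), for Igfbp5 the tenascin gene Tnxb, Cadm3 and Ebf2 (0.889 to 0.915), and for Igfbp6 Tmem100, Cd34 and Suox (0.907 to 0.935). The points share groups, mice and library composition, and the genes were picked as the highest of many.

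Other genes of the pathway were described from a list of 48, of which 44 were tested. With traction in Tem1WT/WT 8 of the 44 passed by edgeR, 6 higher and 2 lower, beside 9.15% of all genes, and the median log2 fold change was 0.34. Adam12, a metalloprotease that cuts IGFBP3 and IGFBP5, was at 58.1, 191 and 239 CPM in WTSH and at 362, 571 and 834 CPM in WTTR, a log2 fold change of 1.86 (adjusted p 0.0475). Pappa2, a protease with the same substrates, was at 17.3, 19.7 and 11.96 CPM in WTSH and at 3.05, 7.42 and 7.07 CPM in WTTR, a log2 fold change of -1.48 (adjusted p 0.0486). Thus 2 proteases of the binding proteins moved in opposite directions, while the remaining 4 genes of the protease and inhibitor list, Pappa among them, did not pass.

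Igf2r, the receptor that clears IGF2 and sorts lysosomal enzymes, was at 116, 148 and 142 CPM in WTSH and at 194, 240 and 325 CPM in WTTR, a log2 fold change of 0.91 (adjusted p 0.0472). Igf2bp2, which binds Igf2 mRNA among others, was at 5.21, 6.93 and 9.57 CPM in WTSH and at 32.8, 15.1 and 17.0 CPM in WTTR, a log2 fold change of 1.58 (adjusted p 0.0464). WTTR replicate 1 was again the highest for Igf2bp2. Grb2, an adaptor that links receptors to Ras, was at 56.0, 56.8 and 62.8 CPM in WTSH and at 145, 96.9 and 88.3 CPM in WTTR, a log2 fold change of 0.91 (adjusted p 0.0381). Kazald1, a secreted protein with an IGF binding domain, was at 17.9, 9.36 and 6.86 CPM in WTSH and at 2.52, 5.08 and 4.38 CPM in WTTR, a log2 fold change of -1.51 (adjusted p 0.0333). The other 2 that rose were the adaptor Shc1 and the kinase Akt1, the latter from 104, 124 and 125 CPM to 206, 186 and 254 CPM. In each of these 8 genes the groups did not overlap, beside 23 of the 44 pathway genes tested and 35.7% of all genes. The calls came from the same libraries, so the lack of overlap is not separate support for them. Most of these calls sat near the threshold: over 19 other settings Adam12 lost its call in 15, Igf2bp2 in 14, Igf2r and Pappa2 in 13 each, Grb2 in 9 and Kazald1 in 7. Without WTTR replicate 1, where 1.86% of all genes passed, 0 of the 44 did, and the log2 fold changes were then 2.09 for Adam12, 1.05 for Igf2r, 1.13 for Igf2bp2, 0.65 for Grb2, -1.19 for Pappa2 and -1.28 for Kazald1.

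Among Tem1lacZ/lacZ scars 0 of the 44 pathway genes passed with traction by edgeR, with 9 at an unadjusted p under 0.05 (8.12% of all genes), 0 by DESeq2 (0.13% of all genes) and 2 by limma-voom (2% of all genes), and the median was 0.24. Between genotypes 0 passed by edgeR under traction and 0 in sham scars, with 18 and 9 at an unadjusted p under 0.05, beside 26.1% and 11.7% of all genes. DESeq2 called 6 and 0, beside 12.7% and 0.0813% of all genes, and limma-voom called 0 and 0. For the interaction 0 of the 44 passed by edgeR, DESeq2 or limma-voom, with 2 at an unadjusted p under 0.05 (8.91% of all genes). Pappa2 was at 6.47, 8.07 and 5.97 CPM in lacZSH and at 4.78, 13.3 and 12.3 CPM in lacZTR. Averaged over genotypes 8 passed, 7 higher and 1 lower, beside 9.73% of all genes.

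Esm1, an endothelial proteoglycan with an IGF binding protein motif, missed the threshold in Tem1WT/WT with a log2 fold change of 3.25 (SE 0.92, adjusted p 0.0502 by edgeR), at 1.24 ± 1.29 CPM in WTSH and 11.9 ± 7.31 in WTTR (SD, n = 3). Igfbp1, the binding protein made mainly by the liver, had 0 counts in 11 libraries and 1 count in the other, and was not tested.

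**Figure D5:**
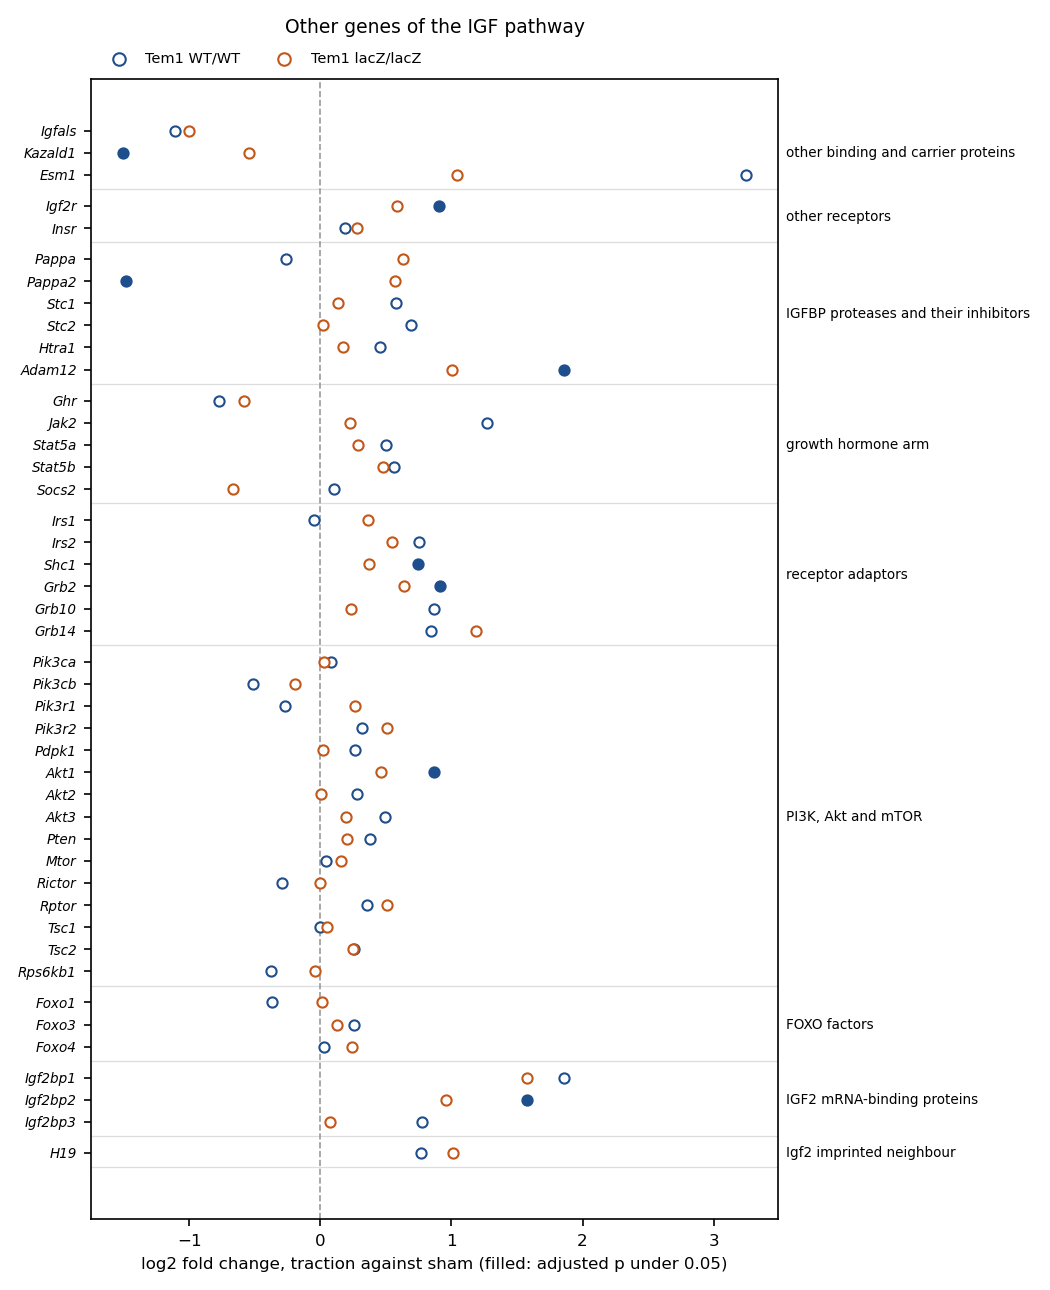
log2 fold change with traction against sham (horizontal axis) of the 44 other pathway genes tested, grouped by role, in Tem1WT/WT (blue) and Tem1lacZ/lacZ (orange), with filled points where the adjusted p is under 0.05. The 8 filled points are all blue, and 32 of the 44 genes lie above 0 in Tem1WT/WT and 38 in Tem1lacZ/lacZ.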

How the data were processed

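RNA from 12 scars was sequenced from stranded poly(A) libraries. The authors trimmed reads with fastp 0.20.0, aligned them to GRCm38 with HISAT2 2.1.0, counted them per gene with featureCounts 2.0.0 and deposited whole-number counts without normalization. The annotation, strand setting and handling of multi-mapping reads are not given in the sources used here. Igfbp7 shares 85 exon bases with Polr2b on the opposite strand. Igf2 shares 3596 of its 5723 exon bases with Gm49394 on the same strand, and 98 with Igf2os on the opposite strand. Reads in shared exons may have been left uncounted for Igf2, which was not tested.

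Counts were analysed in R 4.3.3 with edgeR 4.0.16 (filterByExpr by group, TMM, robust quasi-likelihood, a single model of the 4 groups, 8 residual degrees of freedom). All p-values are two-sided and were adjusted by Benjamini-Hochberg over 18853 genes at a threshold of 0.05. The spread between mice sets the errors. Levels per kb used union exon lengths of GENCODE vM21, and correlations used log2 CPM with a prior count of 2. DESeq2 1.42.0, limma 3.58.1 (voom), other normalizations and filters, a replicate block and leaving out each library were alternatives. Scripts were tested on simulated data, and figures were drawn with matplotlib 3.10.9.

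The members, pathway list and marker lists were chosen with earlier results of these data known. All 9 members are named. Of the pathway genes past the threshold the 6 with the largest change are named with their statistics, and Esm1 and Shc1 were added after their values were seen. No 2 libraries of a group were copies. Other assays of the study were not analysed here.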

Additional observations from a re-analysis of the deposited data

How the results depend on the processing

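Of the 9 genes, traction in Tem1WT/WT called 3 by DESeq2, 0 with only the 6 libraries compared and 0 to 2 when 1 library was left out. Of the 44 other pathway genes it called 5 with upper quartile normalization, 4 with all genes of at least 1 count, 13 by DESeq2, 3 by limma-voom, 0 with only the 6 libraries and 0 to 10 when 1 library was left out. With traction in Tem1lacZ/lacZ limma-voom called 2 pathway genes. Under traction the genotypes differed by DESeq2 in 3 members and 6 pathway genes, and in 0 to 3 and 0 to 4 when 1 library was left out. DESeq2 called 1 member for the interaction. Averaged traction called 0 members with upper quartile normalization, 1 with all genes of at least 1 count, 4 by DESeq2, 4 by limma-voom and 0 to 4 when 1 library was left out, and 14 pathway genes by DESeq2, 15 by limma-voom and 0 to 14 when 1 library was left out. The averaged genotype difference called 2 members and 10 pathway genes by DESeq2, 4 pathway genes by limma-voom, and 0 to 1 and 0 to 5 when 1 library was left out. Over all genes DESeq2 called 20.3% for traction in Tem1WT/WT, 12.7% between genotypes under traction, 0.377% for the interaction, 19.2% for averaged traction and 17.4% for averaged genotype, and limma-voom 3.9%, 0.0849%, 0%, 20.4% and 2.93%. When 1 library was left out, 0% to 14.7% of all genes passed for traction in Tem1WT/WT and 0% to 17.6% for averaged traction. Between genotypes these shares were 0.0155% to 7.32% under traction and 0.0155% to 5.24% averaged. For traction in Tem1WT/WT and averaged traction, upper quartile normalization called 8.87% and 7.84% of all genes. The filter of at least 1 count called 3.54% and 4.19%. With only the 6 libraries it was 0%. The cause of these differences between settings was not tested.

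A replicate number shared between groups names different mice. The deviations of such libraries from their group means had correlations of -0.324 to 0.25, above 0.1 in 8 of 18 pairs. Libraries with unlike numbers were not compared in this way, so these values cannot show whether the numbers mark a batch. The main fit did not pair the samples. The fit with the replicate number as a block called 5 pathway genes for traction in Tem1WT/WT and 0 members for averaged traction, beside 7.78% and 7.91% of all genes.

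Some directions turned. Igfbp2 with traction in Tem1WT/WT, at 0.54, ranged from -0.21 without WTTR replicate 3 to 1.01 without WTTR replicate 1. The interaction of Igf1r, at -0.52, ranged from -0.76 to 0.11, the latter without WTTR replicate 1. Between genotypes Igfbp3 in sham scars turned from -0.53 to 0.03 without WTSH replicate 1, and Igfbp2 under traction from 0.34 to -0.21 without lacZTR replicate 3. Igf1 with traction in Tem1WT/WT became 0.00921 by limma-voom and ranged from -0.71 to 0.30 when 1 library was left out. Igfbp7 with traction in Tem1lacZ/lacZ became 0.0174 with all genes of at least 1 count and 0.0523 by limma-voom and ranged from -0.0833 to 0.0947 when 1 library was left out. Igfbp6 between genotypes in sham scars ranged from -0.000451, without lacZSH replicate 3, to 0.513 when 1 library was left out. Upper quartile normalization moved the median log2 fold change of all genes with traction in Tem1WT/WT to -0.12, and Igfbp7 was then at 0.57. With 3 mice a group, differences that miss the threshold are not shown to be absent.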

Other observations

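H19, the imprinted neighbour of Igf2, ranged more widely than Igf2 with traction in Tem1WT/WT: it was at 647, 624 and 406 CPM in WTSH and at 293, 770 and 1795 CPM in WTTR. In Tem1lacZ/lacZ scars it was at 528, 308 and 489 CPM with sham and at 666, 1370 and 639 CPM with traction, without overlap. Over the 12 libraries its r with Igf2 was 0.642, and 0.68 with Igfbp4. The growth hormone receptor gene Ghr was at 156, 111 and 114 CPM in WTSH and at 81.9, 74.4 and 66.6 CPM in WTTR, without overlap. In Tem1lacZ/lacZ scars Ghr was at 305, 70.1 and 108 CPM with sham and at 74.4, 64.3 and 183 CPM with traction. Among the 9 genes Ghr had its highest r with Igfbp5 (0.657, and 0.745 within groups). No gene of the growth hormone list passed in any comparison by edgeR. Igf2bp2 had an r of 0.922 with Igf1r over the 12 libraries and 0.758 within groups. Without WTTR replicate 1 the r of H19 was 0.776 with Igf2 and 0.845 with Igfbp4. These correlations rest on 12 points that share groups and library composition.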
